A study of Mus musculus with 24 samples.

Results

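The globin genes and 2 further genes of the red cell were followed through the mouse tooth germ libraries. They were 9 genes chosen by name (Hbb-y, Hbb-bh1, Hbb-bs, Hbb-bt, Hba-x, Hba-a1, Hba-a2, Alas2 and Slc4a1), taken by symbol from the 56748 genes of the count table. All 9 were found once. The 7 globins took between 0.201% and 0.799% of all counts in the libraries that had not been cultured, and between 0.00306% and 0.00387% after culture.

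The libraries came from the mandibular first molar of ICR mice. RNA was sequenced in 8 groups of 3 libraries. At the cap stage (E13) these were the undivided preparation (Cap-W), the lingual part (Cap-L) and the buccal part (Cap-B), and at the bell stage (E15) the same preparations (Bell-W, Bell-L, Bell-B). Cap stage parts kept in vitro for 2 days formed the groups Cap-L+2D and Cap-B+2D. The study's methods say that the mesenchyme alone was isolated, whereas the series text describes W as the whole germ. The methods give 36 embryos from 3 pregnant mice, triplicates and, elsewhere, 2 biological replicates, so the embryos behind each library were pooled or shared in a way that is not stated, and p-values measure only the spread between these libraries, which may be technical.

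Globins carry oxygen in red cells, as tetramers of alpha-type and beta-type chains around heme. In the mouse embryo, primitive red cells from the yolk sac make the embryonic chains, from Hbb-y and Hbb-bh1 on the beta side and Hba-x on the alpha side. Definitive red cells from the fetal liver replace them and make the later chains, from Hbb-bs, Hbb-bt, Hba-a1 and Hba-a2. Alas2 encodes the erythroid enzyme that starts heme synthesis, and Slc4a1 the anion exchanger of the red cell membrane (band 3).

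The second exons are shown because they set which globins could be counted apart. In the beta-type genes this exon has 223 bases, and capitals mark the bases that differ from Hbb-bs. The sequences are from GRCm39, all on the minus strand of chromosome 7: Hbb-bs at chr7:103476655-103476877, Hbb-y at chr7:103501955-103502177 and Hbb-bh1 at chr7:103491898-103492120.
Hbb-bs: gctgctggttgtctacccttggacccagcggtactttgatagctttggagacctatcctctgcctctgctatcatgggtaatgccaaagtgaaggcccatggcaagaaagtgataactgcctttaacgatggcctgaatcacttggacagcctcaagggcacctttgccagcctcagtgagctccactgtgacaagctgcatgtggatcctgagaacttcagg
Hbb-y: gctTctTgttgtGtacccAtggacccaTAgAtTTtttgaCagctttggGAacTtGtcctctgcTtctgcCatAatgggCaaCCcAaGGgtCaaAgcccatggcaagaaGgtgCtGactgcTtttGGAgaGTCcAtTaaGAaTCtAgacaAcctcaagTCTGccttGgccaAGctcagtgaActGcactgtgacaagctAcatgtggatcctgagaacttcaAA
Hbb-bh1: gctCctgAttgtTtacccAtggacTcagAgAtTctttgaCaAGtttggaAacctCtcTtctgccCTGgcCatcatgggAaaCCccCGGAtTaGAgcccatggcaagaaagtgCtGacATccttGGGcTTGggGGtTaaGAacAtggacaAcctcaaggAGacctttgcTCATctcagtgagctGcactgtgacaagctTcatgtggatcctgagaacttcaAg
The exon of Hbb-bt (chr7:103462646-103462868) was identical to that of Hbb-bs. Hbb-y differed from Hbb-bs at 55 bases (75.3% identity) and Hbb-bh1 at 54 (75.8%).

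In the alpha-type genes the exon has 205 bases on the plus strand of chromosome 11, and capitals mark differences from Hba-a1. Hba-a1 lies at chr11:32233924-32234128 and Hba-x at chr11:32227569-32227773.
Hba-a1: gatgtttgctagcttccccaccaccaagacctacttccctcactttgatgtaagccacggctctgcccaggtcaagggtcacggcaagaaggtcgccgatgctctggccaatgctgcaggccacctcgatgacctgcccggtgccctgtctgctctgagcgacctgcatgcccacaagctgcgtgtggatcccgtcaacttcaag
Hba-x: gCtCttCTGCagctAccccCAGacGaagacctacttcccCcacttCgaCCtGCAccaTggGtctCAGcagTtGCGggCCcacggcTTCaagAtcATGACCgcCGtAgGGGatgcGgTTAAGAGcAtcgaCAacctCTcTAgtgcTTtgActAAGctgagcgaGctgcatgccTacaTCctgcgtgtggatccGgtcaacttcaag
The exon of Hba-a2 (chr11:32246741-32246945) was identical to that of Hba-a1, and Hba-x differed at 71 bases (65.4% identity). Read pairs that mapped to several places were left out of the deposited counts, so the copies are undercounted. Of all windows of 100 exonic bases, 84.3% in Hba-a1, 78.1% in Hba-a2, 47.2% in Hbb-bs and 32.8% in Hbb-bt occurred a second time in the globin clusters, against 0% in Hbb-y, Hbb-bh1 and Hba-x. The same windows are lost in every library, so levels of the later globins against the embryonic ones are low counts in all groups. Of the exonic bases of Alas2, 15.5% overlapped Apex2 or Mir3620, and pairs that fell on both genes were not counted.

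The 250 bases before the start of the embryonic beta-type genes are shown because both genes fell together at the bell stage. Capitals mark 5 short motifs on either strand. They were CACCC, a motif of the Klf1 family, then CCAAT, the box of that name, then AGATAA, a motif of the Gata factors, then TATAAA, the common start box, and lastly CATAAA, its variant in globin genes. The windows lie at chr7:103502424-103502673 and chr7:103492372-103492621 (GRCm39, minus strand, GENCODE M39 canonical starts).
Hbb-y: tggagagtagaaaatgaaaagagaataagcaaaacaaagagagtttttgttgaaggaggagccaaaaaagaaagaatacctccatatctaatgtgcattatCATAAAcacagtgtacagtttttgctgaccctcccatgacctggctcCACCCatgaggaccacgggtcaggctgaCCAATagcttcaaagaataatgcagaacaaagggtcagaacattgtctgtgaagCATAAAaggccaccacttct
Hbb-bh1: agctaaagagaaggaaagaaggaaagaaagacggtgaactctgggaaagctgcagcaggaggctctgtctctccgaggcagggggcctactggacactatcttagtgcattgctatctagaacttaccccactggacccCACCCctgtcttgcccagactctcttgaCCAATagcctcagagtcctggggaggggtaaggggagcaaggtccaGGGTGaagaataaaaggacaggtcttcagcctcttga
At these starts CACCC was found before 7 of the 9 genes (52.9% of 21770 protein-coding genes), CCAAT before 4 (36.5%), AGATAA before 4 (9.6%), TATAAA before 1 (11.9%) and CATAAA before 1 (10%). A second search at RefSeq starts (table build GRCm38.p6), added after the first had been seen, used the same length and motifs and held 7 of the 9 genes. There CACCC was found before 7 of 7 (52% of 32841 genes), CCAAT before 5 (33.9%), AGATAA before 2 (9.99%), TATAAA before 3 (12.4%) and CATAAA before 1 (10.8%). The counts moved with the annotation of the start, and a match is only a match of letters.

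Total counts lay between 20581720 and 39266497 per library. Against the other libraries of their groups, Cap-W replicate 1 and Bell-W replicate 3 stood apart, and the summed level of 6 epithelial genes was 1736 CPM in Bell-W replicate 3 and 419 and 492 CPM in the other Bell-W libraries (CPM, counts relative to the library total after TMM scaling). The 7 dental mesenchyme genes listed, among them Pax9, Msx1 and Barx1, summed to between 1872 and 3791 CPM, and none was at 0. Fewer red cells and less RNA per red cell cannot be told apart in such bulk libraries.

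**Figure D1:**
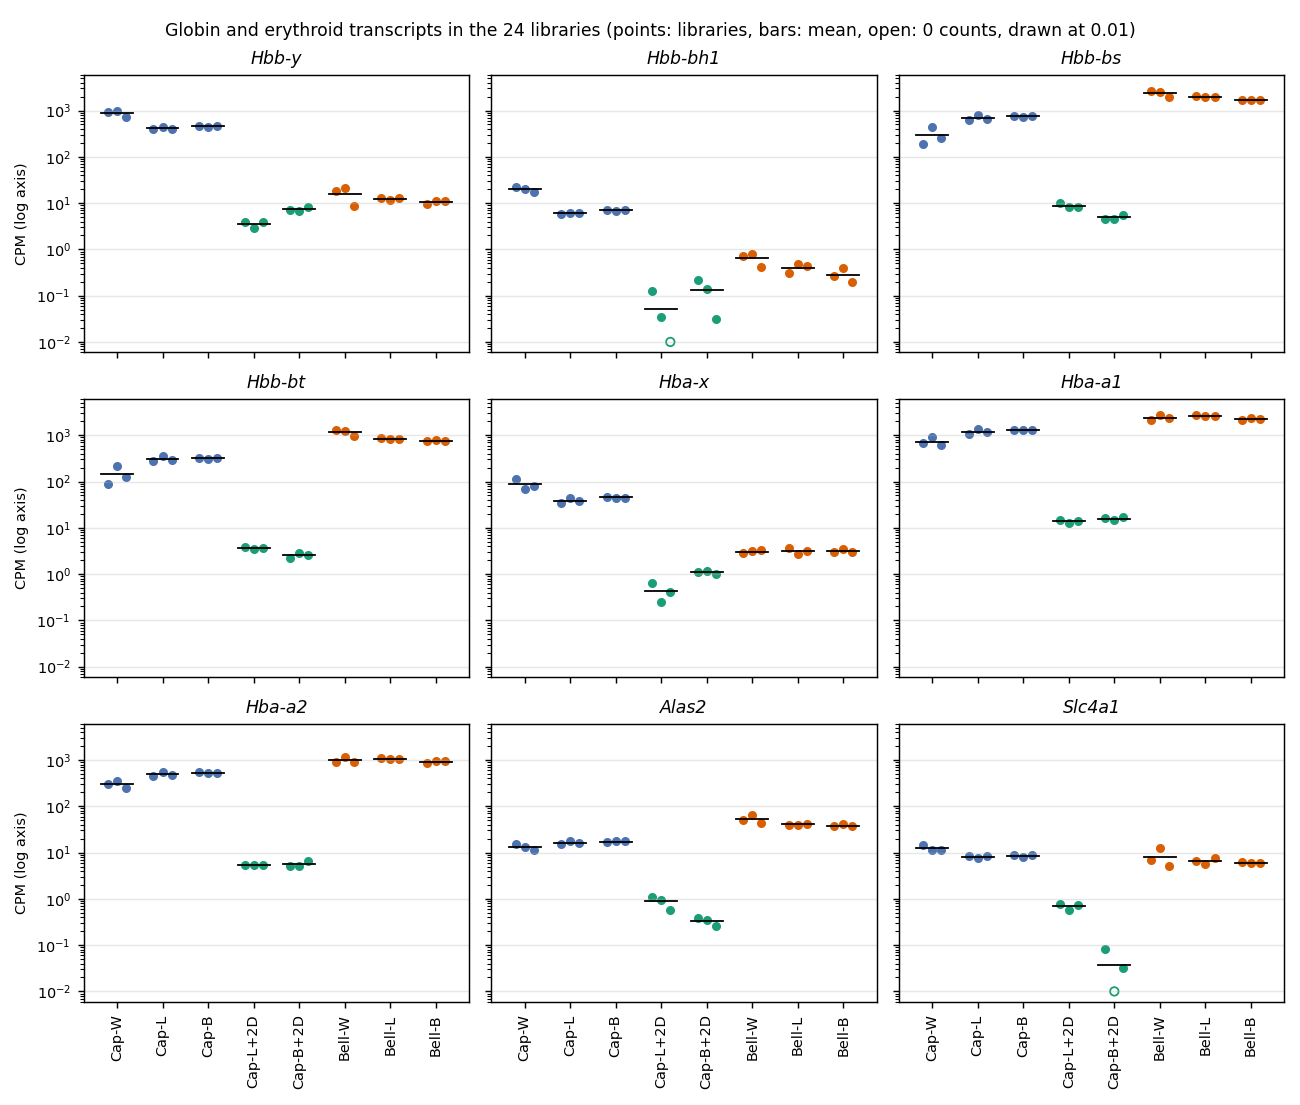
CPM (log axis) of each of the 9 genes in the 24 libraries. Points are libraries, black bars group means, and open points libraries with 0 counts drawn at 0.01. Hbb-y, Hbb-bh1 and Hba-x were highest in the cap stage libraries, the later globins and Alas2 in the bell stage libraries, and all 9 genes were low after culture.

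The globin with the highest counted level differed between the undivided preparation and the parts at the cap stage. Per kilobase of exon, Hbb-y led at Cap-W with 1381 ± 207 CPM per kb (SD, n = 3), followed by Hba-a1 with 898 ± 187. In the cap stage parts Hba-a1 led, with 1480 ± 183 in Cap-L and 1599 ± 31.7 in Cap-B. Hba-a1 also led in Bell-L (3238 ± 109) and Bell-B (2767 ± 142), where Hbb-bs followed with 2559 ± 78 and 2206 ± 32.7. In Bell-W, Hbb-bs (3117 ± 451) and Hba-a1 (2952 ± 346) differed by less than their spread. The levels of Hba-a1 are low by the shared windows given above, and the order was not corrected for them. In rank by CPM per kb, Hba-a1 and Hbb-bs were among the 15 highest genes in all 3 bell stage groups.

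The first comparison asked how these genes differed between the cap and bell stages. The 3 embryonic globins were lower at the bell stage in every preparation, by log2 fold changes between -5.80 and -3.59, whereas the later globins and Alas2 were higher. Genes were called at an adjusted p under 0.05 (edgeR quasi-likelihood test, Benjamini-Hochberg over all genes) and an absolute log2 fold change over 0.5. In Bell-W against Cap-W 8 of the 9 genes were called, where 14.5% of all genes were, 5 higher (10.3% of all genes) and 3 lower (4.21%). In Bell-L against Cap-L 8 were called (20.0% of all genes), 5 higher (14.2%) and 3 lower (5.78%). In Bell-B against Cap-B all 9 were called (18.7%), 5 higher (12.0%) and 4 lower (6.73%). With any 1 library left out, 8 or 9 were called in W.

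Hbb-y encodes the embryonic epsilon-y chain. Its level was 926, 972 and 726 CPM in Cap-W and 17.9, 21.0 and 8.73 CPM in Bell-W. It was 397, 444 and 393 CPM in Cap-L and 12.8, 11.6 and 13.2 CPM in Bell-L, and 463, 449 and 470 CPM in Cap-B against 9.45, 11.1 and 11.0 CPM in Bell-B. Every cap library lay far above every bell library. The log2 fold change was -5.80 ± 0.36 (SE; adjusted p = 0.000223) in W, -5.03 ± 0.07 (1.25e-25) in L and -5.46 ± 0.05 (7.20e-38) in B.

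Hbb-bh1, which encodes the second embryonic beta-type chain, was much less abundant. It fell from between 17.5 and 22.2 CPM in Cap-W to between 0.420 and 0.796 CPM in Bell-W, a log2 fold change of -4.97 ± 0.26. The values were -3.86 ± 0.20 in L and -4.62 ± 0.21 in B. Hba-x, the embryonic zeta-like alpha chain, was at 116, 69.7 and 79.0 CPM in Cap-W and at 2.81, 3.14 and 3.27 CPM in Bell-W. Its log2 fold change was -4.85 in W, -3.59 in L and -3.88 in B, and the cap and bell libraries did not overlap.

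The later beta-type globins rose. Hbb-bs was at 190, 432 and 251 CPM in Cap-W and at 2619, 2568 and 1995 CPM in Bell-W, at 635, 805 and 665 CPM in Cap-L and at 2031, 1949 and 1915 CPM in Bell-L. In the buccal part it was at 767, 712 and 755 CPM at the cap stage and at 1669, 1719 and 1693 CPM at the bell stage. The lowest bell library was thus above the highest cap library in each preparation. The log2 fold change was 3.02 ± 0.33 in W, 1.49 ± 0.06 in L and 1.18 ± 0.03 in B, and that of Hbb-bt 3.00 ± 0.34, 1.46 ± 0.06 and 1.27 ± 0.03. The identical second exons keep these from being independent.

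The later alpha-type globins rose less. Hba-a1 went from 666, 903 and 620 CPM in Cap-W to 2119, 2680 and 2391 CPM in Bell-W. Its log2 fold change was 1.70 ± 0.20 in W, 1.14 ± 0.06 in L and 0.78 ± 0.04 in B. Hba-a2 gave 1.75 ± 0.18, 1.12 ± 0.05 and 0.78 ± 0.04. The groups of the stages did not overlap for either gene.

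Alas2 rose with the later globins, and Slc4a1 did not. Alas2 was at 15.3, 13.3 and 11.4 CPM in Cap-W and 50.8, 64.4 and 43.4 CPM in Bell-W, with log2 fold changes of 1.98 ± 0.18, 1.31 ± 0.07 and 1.15 ± 0.06 in W, L and B. Slc4a1 was at 14.3, 11.5 and 11.3 CPM in Cap-W and 6.89, 12.6 and 5.21 CPM in Bell-W, which overlapped (log2 fold change -0.61 ± 0.31, adjusted p = 0.244). In L it was -0.26 ± 0.10 (adjusted p = 0.0374, under the fold limit). It passed in B at -0.52 ± 0.10 (adjusted p = 3.26e-05), but at -0.50 without Cap-B replicate 1 it was under the limit, and in 1 fit of all 24 libraries it had an adjusted p of 0.0923 (edgeR). In Bell-W against Cap-W it passed without Bell-W replicate 2 (-1.04, adjusted p = 0.0413) and in 1 fit of all 24 libraries (-0.60, adjusted p = 0.0264, edgeR).

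Markers of other cells of the germ also moved with stage, though not evenly over the preparations. Over all genes 10.3% were higher in W, 14.2% in L and 12.0% in B (4.21%, 5.78% and 6.73% lower). The 11 endothelial genes summed to between 242 and 253 CPM in Cap-W and between 487 and 603 CPM in Bell-W, and 10 of 11 were called higher in W, 4 in L and 1 in B. The 10 macrophage genes summed to between 50.6 and 58.1 CPM in Cap-W and between 238 and 250 CPM in Bell-W, and 10, 10 and 9 of them were higher in W, L and B. Of 6 skeletal muscle genes 6 were higher in L and 6 in B (median log2 fold changes 3.17 and 1.52). In W 5 of them were tested and 0 called. Of 6 epithelial genes 1, 3 and 5 were higher in W, L and B, and 0 lower. The 1 endothelial gene in B and the 1 epithelial gene in W were near the share of all genes. No gene of these lists was at 0 in every library, and their part in the globin result was not tested.

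**Figure D2:**
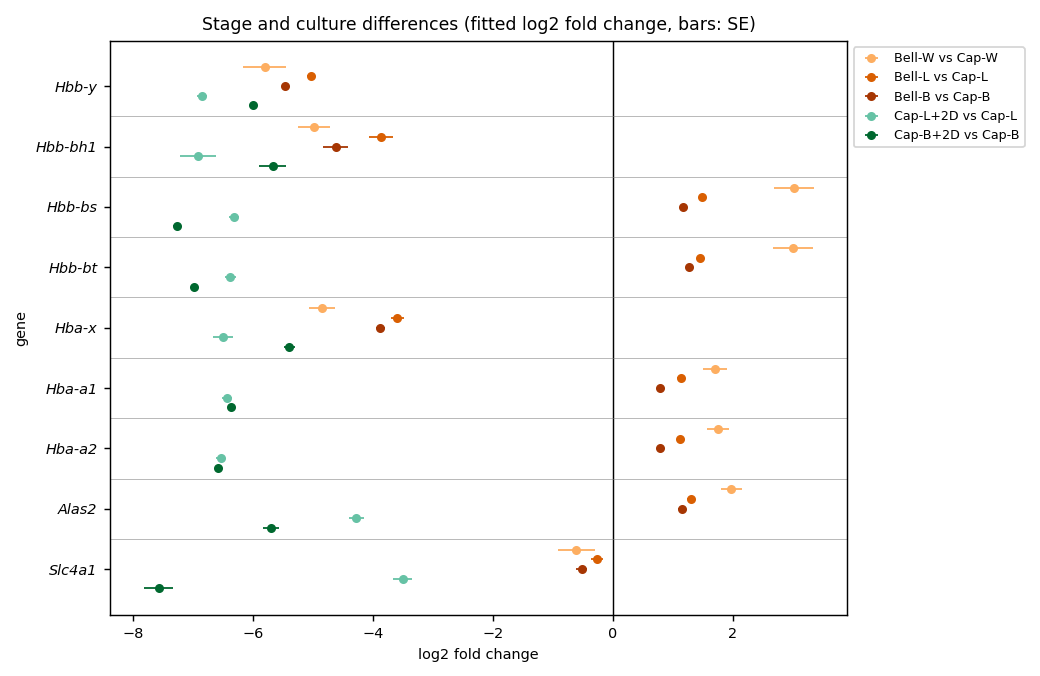
Fitted log2 fold change (x axis) of each gene (y axis) in the 3 stage comparisons and the 2 culture comparisons, with the standard error as bars. The 3 embryonic globins lie left of 0 in all 5, the later globins and Alas2 right of 0 for stage and left of 0 for culture. The culture values of Hbb-bh1 in Cap-L+2D and of Slc4a1 in Cap-B+2D rest on 4 read pairs each.

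The share of embryonic chains within a library does not depend on the scaling between libraries. Hbb-y and Hbb-bh1 made up 77.2%, 60.6% and 66.2% of the counts of the 4 beta-type genes in Cap-W, and 0.472%, 0.565% and 0.310% in Bell-W. In Cap-L the share was 29.4% ± 1.25 (SD, n = 3) and in Cap-B 30.6% ± 0.368, against 0.459% ± 0.0332 in Bell-L and 0.437% ± 0.0322 in Bell-B. Over the 3 preparations the share differed by -42.2 percentage points at the bell stage (exact two-sided permutation test within preparations, p = 0.00025, the smallest it can give, and 0.00075 adjusted over 6 share tests). It was lower in 9 of 9 bell libraries than in any cap library. Leaving out 1 replicate gave between -43.63 and -40.54 points. With the replicate block (exact sign flips of same-numbered pairs) the adjusted p was 0.0117. Both tests treat the 3 preparations as independent, and whether lingual and buccal libraries share germs is not stated.

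On the alpha side Hba-x made up 10.7%, 5.25% and 8.39% of the counts of the 3 genes in Cap-W. The share was 2.23% ± 0.0777 in Cap-L and 2.43% ± 0.0348 in Cap-B, and between 0.0761% and 0.105% in the 9 bell libraries. The mean difference was -4.17 percentage points (exact permutation p = 0.00025, adjusted p = 0.00075). With the replicate block (exact sign flips) the adjusted p was 0.0117. Since the copies of the later chains are undercounted, these shares describe the counted pairs and not the chains in the cells. The mix of primitive and definitive red cells was not measured, and the shares are not a measure of it.

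**Figure D3:**
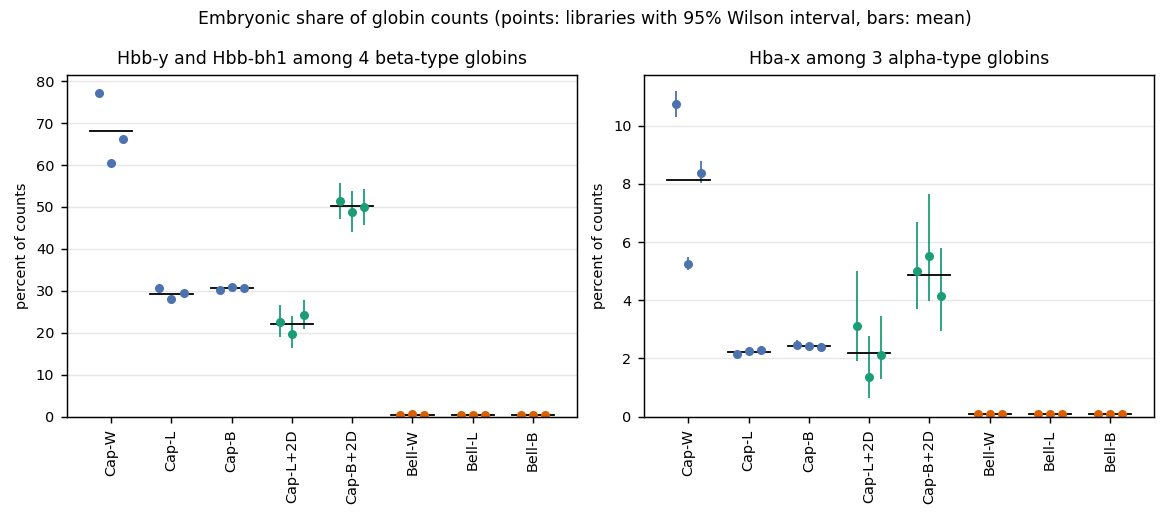
Percent of beta-type (left) and alpha-type (right) globin counts from the embryonic genes, by library, with 95% Wilson intervals (counting error only) and group means as bars. Cap-W lies above both cap stage parts, Cap-B+2D above Cap-L+2D, and all bell stage libraries lie under 1%.

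At the same stage, the undivided preparation and the parts differed. Against Cap-W, 8 of the 9 genes were called in the mean of Cap-L and Cap-B (22.3% of all genes), 4 lower (9.70%) and 4 higher (12.6%). The embryonic genes were lower in the parts, with log2 fold changes of -1.03 for Hbb-y, -1.66 for Hbb-bh1 and -1.09 for Hba-x, as was Slc4a1 at -0.60. The later globins were higher, by 1.29 for Hbb-bs, 1.08 for Hbb-bt, 0.75 for Hba-a1 and 0.76 for Hba-a2, and Alas2 (0.31, adjusted p = 0.0248) was under the fold limit. Without Cap-W replicate 1 the difference of Slc4a1 was -0.49 and no longer past the limit. The 11 endothelial genes listed summed to between 242 and 253 CPM in Cap-W and between 532 and 607 CPM in the parts, and the part of this difference in the globin result was not tested. At the bell stage 1 of the 9 genes was called (9.56% of all genes, 5.35% higher and 4.20% lower), Hbb-bt at -0.54. Without Bell-W replicate 1 or 2 the count was 0 (Hbb-bt at -0.46 and -0.48, under the edgeR fold limit), and without replicate 3, the library with the high epithelial level, it was 5.

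The cultured parts were compared with the fresh cap stage parts to see what remained after 2 days in vitro. All 9 genes were lower on both sides, where 35.4% of all genes were called in L (19.6% higher, 15.9% lower) and 34.5% in B (17.9% higher, 16.6% lower). The same cap libraries serve as controls in the stage and culture comparisons. Summed over libraries and scaled, Hbb-y was 117 times lower in Cap-L+2D (exact 95% interval 104 to 131, counting error only) and 62.7 times lower in Cap-B+2D (58.2 to 67.6). Hba-a1 was 88.1 (83.3 to 93.3) and 81.4 (77.4 to 85.6) times lower. Over the 7 globins the reduction lay between 81.1 and 133 times in L. It was more uneven in B, from 41.4 times for Hba-x (34.1 to 50.8) to 152 times for Hbb-bs (139 to 167).

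Markers of other cells also moved with culture, where 19.6% of all genes were higher and 15.9% lower in L (17.9% and 16.6% in B). The 11 endothelial genes summed to between 593 and 607 CPM in Cap-L and between 491 and 501 CPM in Cap-L+2D (1 higher, 3 lower), and to between 532 and 540 CPM in Cap-B and between 210 and 218 CPM in Cap-B+2D (11 lower). Of 6 muscle genes 6 were higher on both sides, of 10 macrophage genes 9 were higher in L and 7 in B, and of 6 epithelial genes 4 were lower in L and 5 in B. Their part in the fall of the 9 genes was not tested.

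In L, Alas2 and Slc4a1 were less reduced than any of the globins, and in B they were not. Alas2 was 19.7 times lower in L (15.6 to 25.1) and 52.0 times lower in B (36.7 to 76.4). Slc4a1 was 11.4 times lower in L (8.81 to 15.1). In B it had 3, 0 and 1 counts in the cultured libraries against 615 in the fresh ones, a ratio of 207 (80.5 to 763). Hbb-bh1 had 3, 1 and 0 counts in Cap-L+2D against 552 in Cap-L, a ratio of 133 (51.8 to 491).

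The embryonic beta share was lower after culture in L and higher in B. It was 22.6%, 19.8% and 24.2% in Cap-L+2D, below the Cap-L libraries, and 51.5%, 48.9% and 50% in Cap-B+2D, above the Cap-B libraries. The mean difference over both sides was 6.18 percentage points (exact permutation adjusted p = 0.174), made of -7.16 in L and 19.5 in B. The alpha share was 2.19% ± 0.878 in Cap-L+2D and 4.88% ± 0.696 in Cap-B+2D (mean difference 1.21 points, exact permutation adjusted p = 0.09), and differed from the fresh part by -0.0437 points in L, within its spread, and by 2.46 points in B.

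Between the sides, the fresh parts hardly differed. Of the 9 genes 0 were called in Cap-B against Cap-L with edgeR and 0 with DESeq2 (17.5% of all genes with edgeR, 10.4% higher and 7.10% lower). With edgeR 4 had an unadjusted p under 0.05, and 3 an adjusted p under 0.05 that failed only the fold limit. Hbb-y was higher in Cap-B by 0.19 ± 0.05 (log2; adjusted p = 0.00442), within the fold limit. In Bell-B against Bell-L 0 were called with either tool (12.9% of all genes with edgeR, 6.00% higher and 6.88% lower). There 5 had an adjusted p under 0.05 (edgeR) and failed only the fold limit. All 5 had lower values in the buccal part, such as Hbb-bs at -0.21 ± 0.03 and Hba-a2 at -0.23 ± 0.03 (log2). The alpha embryonic share was 0.103 points higher in the buccal parts (exact permutation adjusted p = 0.02), by 0.194 points in the cap libraries and 0.0116 in the bell libraries. This call was lost as a log2 ratio (exact permutation adjusted p = 0.05) and with the replicate block (exact adjusted p = 0.0625). The beta share differed by 0.611 points (adjusted p = 0.175, exact permutation).

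After culture the sides differed, and in opposite directions by gene. Of the 9 genes 6 were called in Cap-B+2D against Cap-L+2D (25.1% of all genes), 2 higher and 4 lower (12.5% of all genes in either direction), and Hbb-bh1 was not tested. Hbb-y was at 6.98, 6.90 and 8.17 CPM in Cap-B+2D and at 3.86, 2.88 and 3.87 CPM in Cap-L+2D (log2 fold change 1.04 ± 0.12), and Hba-x was higher by 1.34 ± 0.28. Hbb-bs was at 4.53, 4.53 and 5.61 CPM against 9.82, 8.36 and 8.38 CPM (-0.86 ± 0.10), and Hbb-bt lower at -0.54 ± 0.13. Neither pair of groups overlapped.

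Alas2 was also lower in Cap-B+2D (-1.36 ± 0.32), at 14, 10 and 8 counts against 27, 27 and 21. Slc4a1 had 4 counts in Cap-B+2D and 62 in Cap-L+2D. Hba-a1 (0.20 ± 0.08) and Hba-a2 (0.07 ± 0.11) were not called. The beta embryonic share was 27.9 points higher in Cap-B+2D (exact permutation p = 0.1, the smallest that 3 against 3 can give). Without Cap-B+2D replicate 1 Hbb-bt was under the fold limit (-0.45), and in 1 fit of all 24 libraries its adjusted p was 0.155 (edgeR). Beside this, 6 skeletal muscle genes summed to between 3399 and 3577 CPM in Cap-B+2D and between 259 and 275 CPM in Cap-L+2D, and 11 endothelial genes to between 210 and 218 CPM and between 491 and 501 CPM. Their part in the result was not tested.

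Whether the buccal over lingual difference itself changed was tested as an interaction, called at an adjusted p under 0.05. With stage, 5 of the 9 genes were called (32.5% of all genes), all lower at the bell stage (18.0% of all genes, against 14.5% higher). In 1 fit of all 24 libraries 0 of them passed (edgeR, lowest adjusted p 0.211), whereas DESeq2 called 5. With culture, 6 were called (35.5%), of which Hbb-y and Hba-x were higher (16.0%) and Hbb-bs, Hbb-bt, Alas2 and Slc4a1 lower (19.5%). Hbb-bh1, Hba-a1 and Hba-a2 were not called. In 1 fit of all 24 libraries Hbb-bt was not called with culture (-0.57, adjusted p = 0.275, edgeR).

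**Figure D4:**
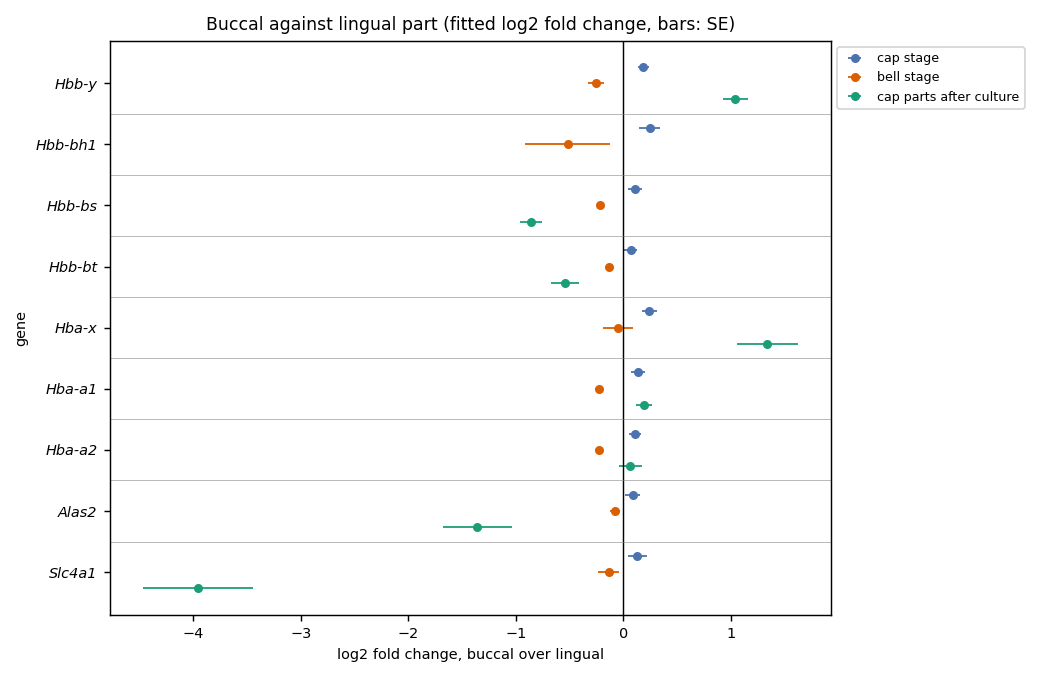
Fitted log2 fold change of the buccal over the lingual part (x axis) for each gene (y axis), at the cap stage, at the bell stage and after culture, with the standard error as bars. Values of the fresh parts lie within 0.52 of 0, and after culture Hbb-y and Hba-x lie right and Hbb-bs, Hbb-bt, Alas2 and Slc4a1 left of it. Hbb-bh1 after culture was not tested.

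Other genes of the red cell were taken from lists. Among 15 membrane genes, of which 13 were tested, 6 were lower and 2 higher in Cap-L+2D against Cap-L, and 6 lower and 3 higher in Cap-B+2D against Cap-B. Over all genes 15.9% were lower and 19.6% higher in L, and 16.6% and 17.9% in B. The median log2 fold change of the list was -0.32 in both, against -0.03 and -0.02 over all genes. Tmod1, which caps actin filaments and is also made in muscle, was higher by 2.36 and 3.21, and Ank1 was higher in B by 2.09.

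Of 14 enzymes and carriers of heme and iron, 1 was lower and 3 higher in Cap-L+2D against Cap-L (15.9% and 19.6% of all genes), and 0 lower and 2 higher in Cap-B+2D against Cap-B (16.6% and 17.9%). The median log2 fold change of the list was 0.01 in L and -0.02 in B. Tfrc, the transferrin receptor, rose by 0.75 in L and 1.26 in B. Among 11 regulators of red cell genes, 6 of 10 tested were lower in B after culture (16.6% of all genes) and 4 of 9 in L (15.9%). Bcl11a, a repressor of embryonic globin genes, was lower at -1.14 in L and -1.09 in B, and Bcl11a also fell in Bell-W against Cap-W by 1.14 (log2). Its mean level was 83.7 CPM in Cap-L and 148 CPM in Cap-B, and 37.8 CPM in Cap-L+2D and 70.7 CPM in Cap-B+2D. Gata1 and Klf1, erythroid activators, stayed under 1 CPM on average in every group. Sox6, another repressor of embryonic globin genes, fell by 1.62 (log2) in Bell-W against Cap-W, from a mean of 52.2 CPM to 17.1 CPM. In that comparison 2 of 9 regulators tested were lower, Bcl11a and Sox6, and 2 higher, Myb (1.33) and Lmo2 (1.17). Over all genes 4.21% were lower and 10.3% higher. With stage in L, 2 of 9 regulators tested were lower and 2 higher (5.78% and 14.2% of all genes). In B 2 of 10 were lower and 1 higher (6.73% and 12.0%). Which cells made these regulators was not tested.

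With stage, 2 of 12 membrane genes tested were higher and 2 lower in W (10.3% and 4.21% of all genes), 4 and 1 of 13 in L (14.2% and 5.78%), and 3 and 2 of 13 in B (12.0% and 6.73%). Of the 14 heme and iron genes 1 was higher in W, 1 lower in L and 1 higher in B. Kel, a blood group antigen of the red cell surface, was lower in all 3, at -1.38, -0.68 and -1.17 (log2). Of 12 further red cell genes, 2 of 6 tested were higher and 0 lower in W. In L these were 2 and 0 of 7, and in B 3 and 1 of 8. Car2 of this list, a carbonic anhydrase of red cells and other tissues, was higher at 1.18, 0.61 and 0.82. After culture 1 of 7 genes of the list was higher and 2 lower in L (19.6% and 15.9% of all genes). In B 1 of 8 was higher and 3 lower (17.9% and 16.6%).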

How the data were processed

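RNA-seq counts of 24 libraries (8 groups of 3, assigned from the labels) were used. The authors deposited raw read-pair counts for 56748 genes, without normalization. Per the file headers they were made with featureCounts 2.0.0 over exons of Ensembl release 107 (GRCm39), without strand, leaving out pairs that mapped to several places or genes. The submitters' processing notes name Bowtie 1.2.3, Trimmomatic 0.39 and Subread 2.0.3, whereas the paper names STAR and Cutadapt, and the kit also differs, so the aligner is unsettled.

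Tests used R 4.3.3 and edgeR 4.0.16 (TMM, filterByExpr, quasi-likelihood, Benjamini-Hochberg). Alternatives were RLE scaling, DESeq2 1.42.0, no filter, 1 fit of all libraries, a replicate block, scaling without the 9 genes, no fold limit and each library left out. Interactions were called at adjusted p under 0.05. Shares were tested with exact permutations (scipy 1.17.1). In CPM, 3 counts (the floor) were 0.0764 to 0.146. Intervals and floors cover counting error only. All columns were mapped.

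The 9 genes and the lists were chosen with earlier results of these data known. All 9 are named, as well as called genes of the lists and the 5 genes most like Alas2 and most like Hbb-y. Upstream motifs were searched first at GENCODE canonical starts. RefSeq starts were added after that result had been seen, and both are given. The fits were tested on simulated counts with known changes. For Bell-W against Cap-W, 37 of 100 2-fold and 85 of 100 4-fold changes were recovered, with 3 false calls. For Cap-L+2D against Cap-L these were 99, 100 and 4, and for the interaction of side and culture 91, 99 and 18. A 2-fold change can thus go uncalled in Bell-W against Cap-W. Gene symbols were taken from GENCODE M39 for 56017 genes. Some genes of the lists are not reported here by name.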

Additional observations from a re-analysis of the deposited data

Results flagged for a closer look

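The difference between the buccal and lingual parts changed with stage for 5 of the 9 genes (interaction tested with edgeR over 12 libraries, called at adjusted p under 0.05; 32.5% of all genes). The values, the log2 buccal over lingual difference at the bell stage minus that at the cap stage, were -0.45 for Hbb-y, -0.33 for Hbb-bs, -0.20 for Hbb-bt, -0.37 for Hba-a1 and -0.34 for Hba-a2. In 1 fit of all 24 libraries 0 of them were called, and Hbb-bt was lost in 7 of 12 when single libraries were omitted.

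The same difference changed with culture for 6 genes (35.5% of all genes). The values, cultured minus fresh, were 0.85 for Hbb-y, 1.10 for Hba-x, -0.97 for Hbb-bs, -0.61 for Hbb-bt, -1.44 for Alas2 and -4.08 for Slc4a1. The last rests on 4 read pairs in Cap-B+2D and depends on the prior count of the fit. Without Cap-L+2D replicate 2 Hba-x was not called (0.84, adjusted p = 0.0528, edgeR), and in 1 fit of all 24 libraries Hbb-bt was not called (-0.57, adjusted p = 0.275, edgeR).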

How the results depend on the processing

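Of 184 counts of called genes among the 9 under an alternative, 176 were within 1.5 times the reported count, and the 8 others were as follows. With no fold limit, 5 genes passed in Bell-B against Bell-L, 3 in Cap-B against Cap-L and 3 in the bell stage parts against Bell-W. In 1 fit of all 24 libraries, 2 passed in the bell stage parts against Bell-W and 0 in the interaction of side and stage. With 1 library left out, between 0 and 5 passed in the bell stage parts against Bell-W, 0 without Bell-W replicate 1 or 2 and 5 without replicate 3. The cause was not tested.

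The alpha share in the buccal against the lingual parts, 0.103 points, passed no threshold as a log2 ratio (0.154, exact permutation adjusted p = 0.05), with the replicate block (0.103, exact sign-flip adjusted p = 0.0625) or with 1 replicate left out (0.0731 to 0.127, where too few permutations remain for any p to pass). Replicate numbers showed no pairing of the libraries, as deviations of same-numbered libraries correlated between -0.161 and 0.164. With 3 libraries per group and little spread in several groups, this cannot exclude that same-numbered libraries share embryos. With the replicate block the counts of called genes were the reported ones (8 in Bell-W against Cap-W, 9 in Cap-L+2D against Cap-L).

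Values that changed sign were all near 0 and uncalled: Hba-x in Bell-B against Bell-L (0.0486), in the bell stage parts against Bell-W Hba-x (-0.0128), Hba-a1 (-0.0575), Hba-a2 (0.11, and 0.00363 without the filter) and Slc4a1 (0.0648), Hba-a2 in Cap-B+2D against Cap-L+2D (-0.0426), and in the interaction of side and culture Hba-a1 (-0.0491) and Hba-a2 (0.0189), all with 1 library left out except the one named. Low counts limit the values of the cultured libraries, where Hbb-bh1 and Slc4a1 had 0 to 8 and 0 to 27 counts.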

Other observations

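Over the 24 libraries, the genes outside all lists whose log2(CPM + 1) followed Alas2 most closely (Pearson, 23402 genes) were Gimap9 (r = 0.972), Hba-ps4 (0.972), Ighm (0.95), Dcaf17 (0.95) and Cryzl2 (0.946). Those closest to Hbb-y were Hsd3b6 (0.969), B4galnt4 (0.968), Fbxl19 (0.964), Kyat3 (0.953) and Gstm7 (0.947). Among the 9 genes, Alas2 went with Hbb-bt (0.992) and Hbb-bs (0.991), and Hbb-y with Hba-x (0.991) and Hbb-bh1 (0.978), while Alas2 and Hbb-y gave 0.272. The points share stage, culture and library, so these are descriptions.

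Of the other globins, Cygb, a globin of mesenchymal cells, was higher after culture, by 1.35 in L and 1.02 in B (log2), the opposite direction to the red cell globins. The count ratio of Hbb-bs to Hbb-bt stayed between 1.61 and 2.54 and that of Hba-a1 to Hba-a2 between 2.24 and 3.11 in every library.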
